A study of Homo sapiens with 6 samples.

Results

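The genes described here encode RAB GTPases, the small GTP-binding proteins that mark membranes for vesicle traffic. They are the rows of the deposited table whose symbol is RAB, a number and at most 1 letter from A to D, whose normalised counts averaged 50 or more across the 6 libraries. The pattern matched 61 rows and 39 reached that level, out of 57820 annotated genes in all. The other 22 lay under it. RAB29 stands in the table under its older symbol RAB7L1, which the pattern does not match, and is not a member. The libraries are polyadenylated RNA of U2OS cells, an established human osteosarcoma line, after 4 h with 5 µM NMS-873 in DMSO (3 libraries) or with 0.05% DMSO alone (3 libraries). The line is the same in both groups, and no other genotype or agent is named. NMS-873 inhibits VCP (p97), an ATPase that extracts ubiquitylated proteins from membranes and complexes. The comparison asks how transcripts of the membrane traffic machinery stood when VCP was inhibited.

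A RAB protein switches between a GTP-bound form that sits on a membrane and recruits effectors and a GDP-bound form that a carrier protein keeps in the cytosol. Exchange factors load GTP, GTPase-activating proteins end the signal, and a geranylgeranyl transferase adds the lipid that anchors the protein. Each RAB marks a preferred membrane, so the members are described in 5 groups by their main textbook location: ER and Golgi (9 members), early and late endosome (8), recycling endosome (7), secretory vesicle and plasma membrane (6) and other or less settled places (9). Many RABs act in more than 1 place, and another assignment would move single members between groups.

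Each library held between 21132311 and 22488952 reads in annotated genes, and every RAB member had at least 98 reads in each library. Normalised counts are reads divided by a size factor from spike-in RNA. On this scale the median of the 14889 genes tested stood at -0.10 (log2), and it stood at -0.01 when factors came from the genes. NMS-873 replicate 1 stood apart from its group: the chi-square per degree of freedom was 7.36 and 7.81 against replicates 2 and 3, and 1.79 between those 2. That library gave the lowest NMS-873 value for 33 of the 39 members. In DMSO, replicate 3 stood apart less, at 3.56 and 3.63 against 1.53. Of mesenchymal markers, VIM was at 439 FPKM under DMSO, SPARC at 442 and COL1A1 at 225, while CDH2 was at 57.1 and RUNX2 at 1.27. Of markers of other tissues, EPCAM was at 1.40 FPKM, CDH1 at 0.252 and PTPRC at 0.0716, and HBB and ALB had no read in any library. The stress response to the inhibitor was present in all 3 treated libraries: HSPA5, the ER chaperone BiP, had 26462 ± 907 normalised counts under DMSO and 179406 ± 8506 under NMS-873. The transcript of the target, VCP, was at 18070.3 ± 662 and 21095 ± 174 (means ± SD, n = 3 libraries, as below). Whether a group's libraries are separate cultures is not stated in the labels. The p-values weigh each difference only against the scatter between these libraries, taken mostly from genes of similar level. That scatter may be technical.

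Under NMS-873, RABs of the endosome and of the ER and Golgi supplied 8 of the 12 rises among the members, led by RAB5B, RAB33B and RAB5A. These were 4 of 8 endosomal members and 4 of 9 members of the ER and Golgi. The RABs of other or less settled places also rose in 4 of 9 members. The called RABs of the recycling and secretory routes were all lower, by little, and their medians lay close to that of all genes. No difference between compartments was tested. The farthest change was that of RAB39B, which rose 3.85-fold. In limma with Benjamini-Hochberg adjustment over all genes tested, 12 of the 39 members rose, 12 fell and 15 did not pass an adjusted p of 0.05. Among all 12079 genes with a mean of at least 50, 52.7% passed, 17.3% higher and 35.4% lower; among the members each direction made up 30.8%. The median log2 fold change of the members was 0.00, beside -0.09 for those 12079 genes. A change of at least 0.5 (log2) among called genes was seen in 5 members, all of them rises, a share close to the 12.9% of the background. With factors from the genes in place of the spike-in RNA the members' split was 17 higher and 4 lower, and the 12079 background genes also turned, to 28.6% higher and 23.3% lower. Without NMS-873 replicate 1 the counts were 14 and 6, and without DMSO replicate 1 they were 11 and 5.

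**Figure D1:**
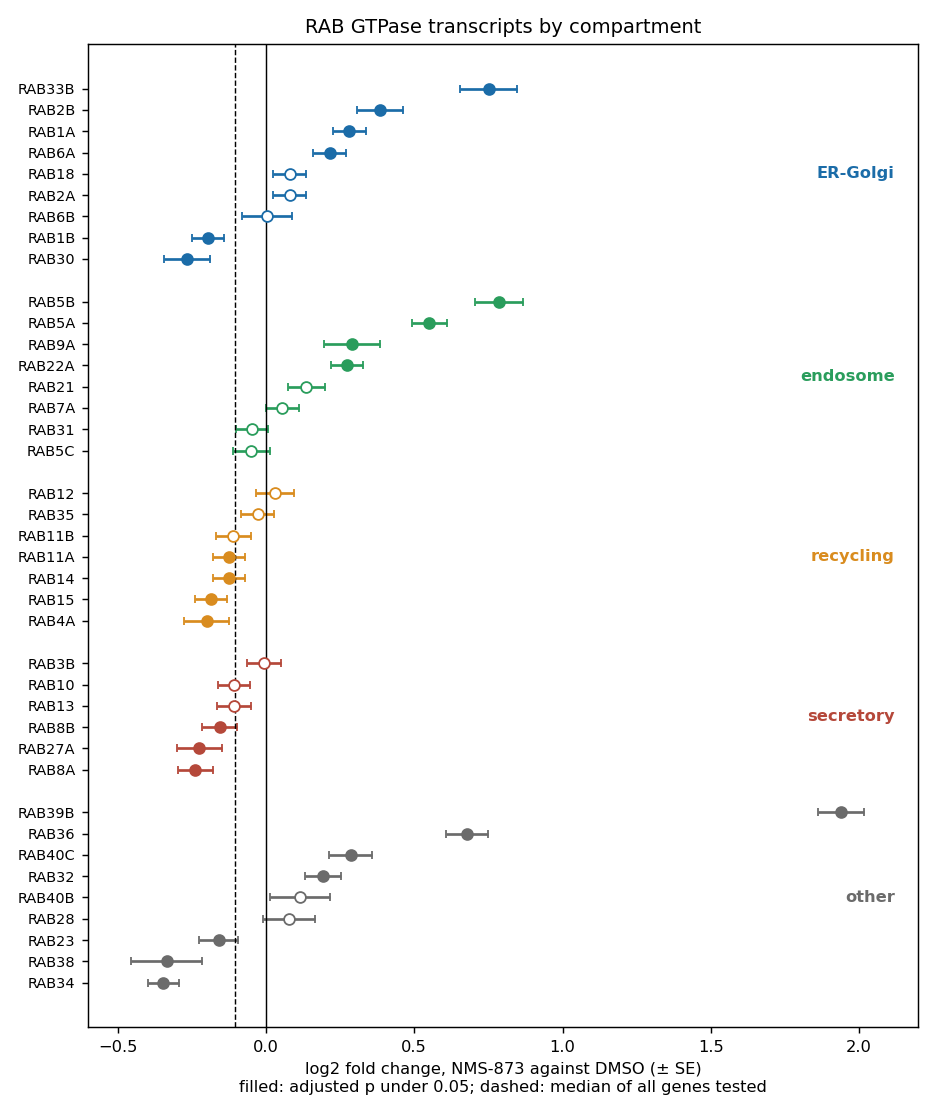
Log2 fold change under NMS-873 against DMSO for each of the 39 RAB GTPases, grouped by compartment; points are limma estimates with their SE, filled where adjusted p is under 0.05, and the dashed line is the median of all genes tested (-0.10). The filled points of the endosome group lie to the right of 0, and those of the recycling and secretory groups lie to the left, close to the dashed line.

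Summed over members per gene length, the RAB transcripts came to 750.5 ± 30.2 FPKM under DMSO and 752 ± 38.8 under NMS-873, with overlapping groups. FPKM values are reads relative to gene length, on the same spike-in scale, and allow levels of different genes to be compared. Such a comparison rests on the annotated lengths. RAB1B was the most abundant under DMSO, at 97.8 ± 4.19 FPKM, followed by RAB1A (69.5 ± 4.62), RAB34 (69.0 ± 2.62) and RAB7A (66.4 ± 4.18), and the last 3 did not differ beyond their spread. RAB10 followed at 45.8 ± 1.12 FPKM and RAB32 at 36.5 ± 2.71. At the low end were RAB30, RAB33B and RAB40B at 1.65, 1.37 and 1.29 FPKM. Members that rose had a median DMSO level of 4.55 FPKM, against 13.2 for those that fell and 13.4 for those that did not pass. This is a description over genes that share the 6 libraries.

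**Figure D2:**
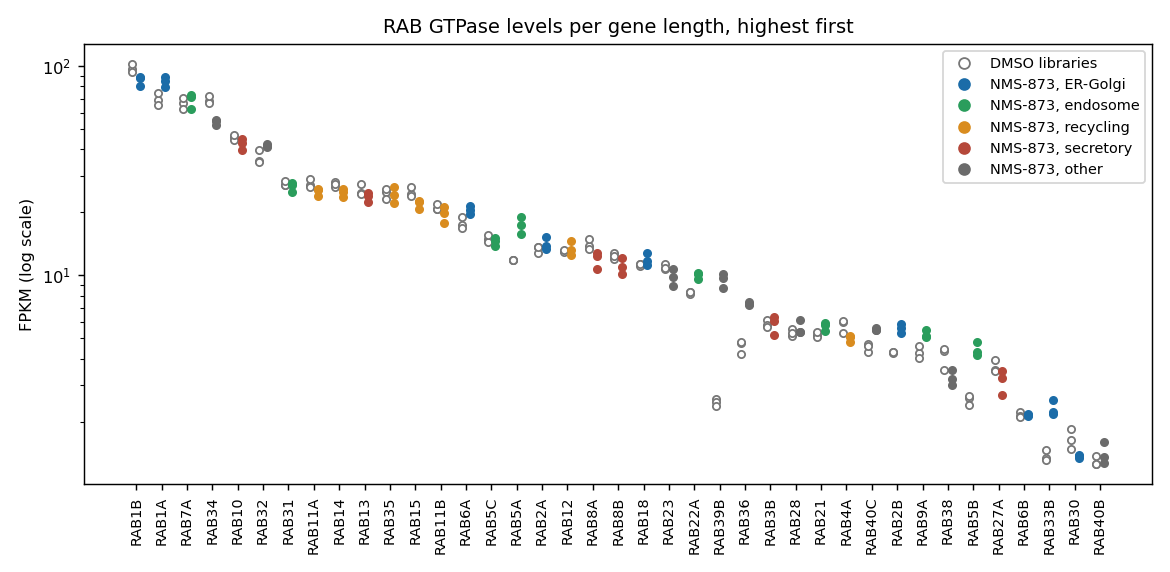
FPKM of each RAB GTPase in each library on a log scale, ordered by the mean over the 6 libraries; open points are DMSO libraries and filled points, coloured by compartment, NMS-873 libraries. The widest gap between open and filled points is that of RAB39B, at 2.47 against 9.51 FPKM on average.

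Because a share of the summed RAB FPKM does not depend on how libraries are scaled to each other, the compartments were also set side by side in this way. The endosome group took 18.8% ± 0.0469 under DMSO and 20.3% ± 0.319 under NMS-873, and the ER and Golgi group 29.2% ± 0.187 and 30.3% ± 0.0647. The recycling group took 19.2% ± 0.161 and 17.9% ± 0.175, and the secretory group 14.3% ± 0.0794 and 13.1% ± 0.201. In these 4 groups the treated libraries did not overlap the controls, while the remaining RABs overlapped at 18.5% ± 0.129 and 18.4% ± 0.536. The shares sum to a whole, so a higher share of 1 group lowers the others.

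Of the 8 endosomal RABs, 4 rose and 0 fell, beside 17.3% higher and 35.4% lower in the background. Their median log2 fold change was 0.20. RAB5 proteins govern fusion of early endosomes, and their genes moved unequally. RAB5A (ENSG00000144566.6; chromosome 3, 19988571 to 20026667, hg19, plus strand) had 982, 979 and 976 normalised counts in DMSO replicates 1 to 3 and 1308, 1441 and 1567 under NMS-873. The control values were almost equal, and the lowest treated library was well above them. The rise was 1.47-fold (log2 fold change 0.55, SE 0.0590, limma adjusted p = 1.14e-16). RAB5B (ENSG00000111540.11; chromosome 12, 56367697 to 56388490) had 262, 242 and 268 normalised counts under DMSO and 421, 432 and 483 under NMS-873. It rose 1.73-fold without overlap (log2 fold change 0.79, SE 0.0803, limma adjusted p = 4.71e-18). RAB5C, under DMSO the most abundant of the 3 per gene length, had 896 ± 37.2 and 865 ± 38.0 normalised counts and did not pass (log2 fold change -0.05, limma adjusted p = 0.532).

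RAB22A, a relative of RAB5 on early endosomes that also serves recycling, had 1661, 1684 and 1689 normalised counts under DMSO and 1944, 2053 and 2090.1 under NMS-873. All 3 treated libraries were above all 3 controls, a 1.21-fold rise (log2 fold change 0.27, SE 0.0553, limma adjusted p = 8.23e-06). RAB9A, which serves transport from late endosomes to the Golgi, rose 1.22-fold, from 191 ± 12.5 to 234 ± 9.72 normalised counts. RAB7A, the main RAB of late endosomes and lysosomes and the most abundant of this group, had 3941, 3694 and 4191 normalised counts under DMSO and 3727, 4253 and 4318 under NMS-873. These ranges overlapped and RAB7A did not pass (log2 fold change 0.06, limma adjusted p = 0.416), although it did, upward, with factors from the genes and without NMS-873 replicate 1. RAB21, which binds integrins on early endosomes, was at 0.14 (log2; limma adjusted p = 0.0637) with groups that did not overlap. It passed, upward, in 6 of 18 alternatives, among them factors from the genes and leaving out NMS-873 replicate 1. RAB31, also called RAB22B, was at -0.05 (log2).

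The upstream sequences of members were searched for motifs of stress and lysosome transcription factors. The set of promoter sequences used here, on GRCh38.p14, held an entry for 31 of the 39 members. It held none for RAB33B, RAB1A, RAB2A, RAB12, RAB15, RAB39B, RAB36 and RAB38, so these were not searched. In the 250 bases before the annotated start, on both strands, the ER stress elements ERSE and ERSE-II, the unfolded protein response element TGACGTGG and the cyclic AMP response element TGACGTCA were in 0 of the 31. These letters were in 0.0806%, 0.0513%, 0.667% and 1.77% of all 27305 promoters. Of the promoters of genes tested here they were in 0.140%, 0.110%, 0.811% and 2.88%. TGATGNAA, of ATF4 and C/EBP factors, was in 1 of 31, RAB28 (3.19% of all promoters, 1.46% of those of genes tested here). The E-box CACGTG was in 4 of 31 (6.49% of all promoters, 8.87% of those of genes tested here), and these windows are shown because a member that rose and a member that fell carry the same letters (in capitals; 5′ to 3′ on the gene's strand, plus in each, GRCh38.p14).
RAB5A, chr3:19946934-19947023: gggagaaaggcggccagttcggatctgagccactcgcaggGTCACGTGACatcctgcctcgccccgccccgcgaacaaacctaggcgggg
RAB21, chr12:71754803-71754862: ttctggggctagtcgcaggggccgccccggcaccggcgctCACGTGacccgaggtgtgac
RAB31, chr18:9708201-9708286: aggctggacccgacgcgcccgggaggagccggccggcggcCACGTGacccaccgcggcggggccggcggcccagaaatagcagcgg
RAB4A, chr1:229270969-229271054: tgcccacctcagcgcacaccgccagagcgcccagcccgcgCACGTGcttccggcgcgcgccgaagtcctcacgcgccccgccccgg
Of these genes RAB5A rose, RAB4A fell and RAB21 and RAB31 did not pass. In RAB5A the E-box lies within the CLEAR palindrome (all capitals in its line) bound by the lysosome regulator TFEB, a motif added after this sequence was seen. The palindrome was present in 1 of 31 members, 0.330% of all promoters and 0.651% of those of genes tested here. A match says only that the letters are present.

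Of the 9 RABs of the ER and Golgi, 4 rose and 2 fell, beside 17.3% higher and 35.4% lower in the background. Their median log2 fold change was 0.08. RAB1 proteins admit vesicles from the ER to the Golgi, and their 2 genes changed in opposite directions. RAB1A (ENSG00000138069.12; chromosome 2, 65297835 to 65357240) had 4496, 4229 and 4829 normalised counts under DMSO and 5174, 5530.5 and 5764 under NMS-873. The groups did not overlap and the rise was 1.21-fold (log2 fold change 0.28, SE 0.0545, limma adjusted p = 3.02e-06). RAB1B (ENSG00000174903.10; chromosome 11, 66036004 to 66044963) had 4241, 4138 and 4495 normalised counts under DMSO and 3518, 3883 and 3849 under NMS-873, a 1.14-fold fall (log2 fold change -0.20, SE 0.0540, limma adjusted p = 0.00128). RAB1B kept its fall with factors from the genes and lost it only without limma's variance trend.

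RAB33B, a Golgi RAB that binds the autophagy protein ATG16L1, had 147, 161 and 144 normalised counts under DMSO and 245, 239.8 and 278 under NMS-873. Every treated library was above every control, a 1.69-fold rise (log2 fold change 0.75, SE 0.0975, limma adjusted p = 4.50e-12). RAB2B, which acts between ER and Golgi, had 338, 335 and 338 normalised counts under DMSO and 463, 418 and 442 under NMS-873. It rose 1.31-fold without overlap (log2 fold change 0.38, limma adjusted p = 5.80e-06). Its paralogue RAB2A was at 0.08 (log2) and did not pass. RAB6A, which serves traffic within and out of the Golgi, rose 1.16-fold, from 1899 ± 118 to 2203 ± 93.5 normalised counts. The less abundant RAB6B was at 0.00 (log2). RAB18, found on the ER and lipid droplets, was at 0.08 (log2; limma adjusted p = 0.245). The Golgi RAB30 fell 1.21-fold, from 421 ± 46.5 to 349 ± 6.21 normalised counts, and this call held in 12 of 18 alternatives, being lost for example with factors from the genes and without DMSO replicate 1.

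**Figure D3:**
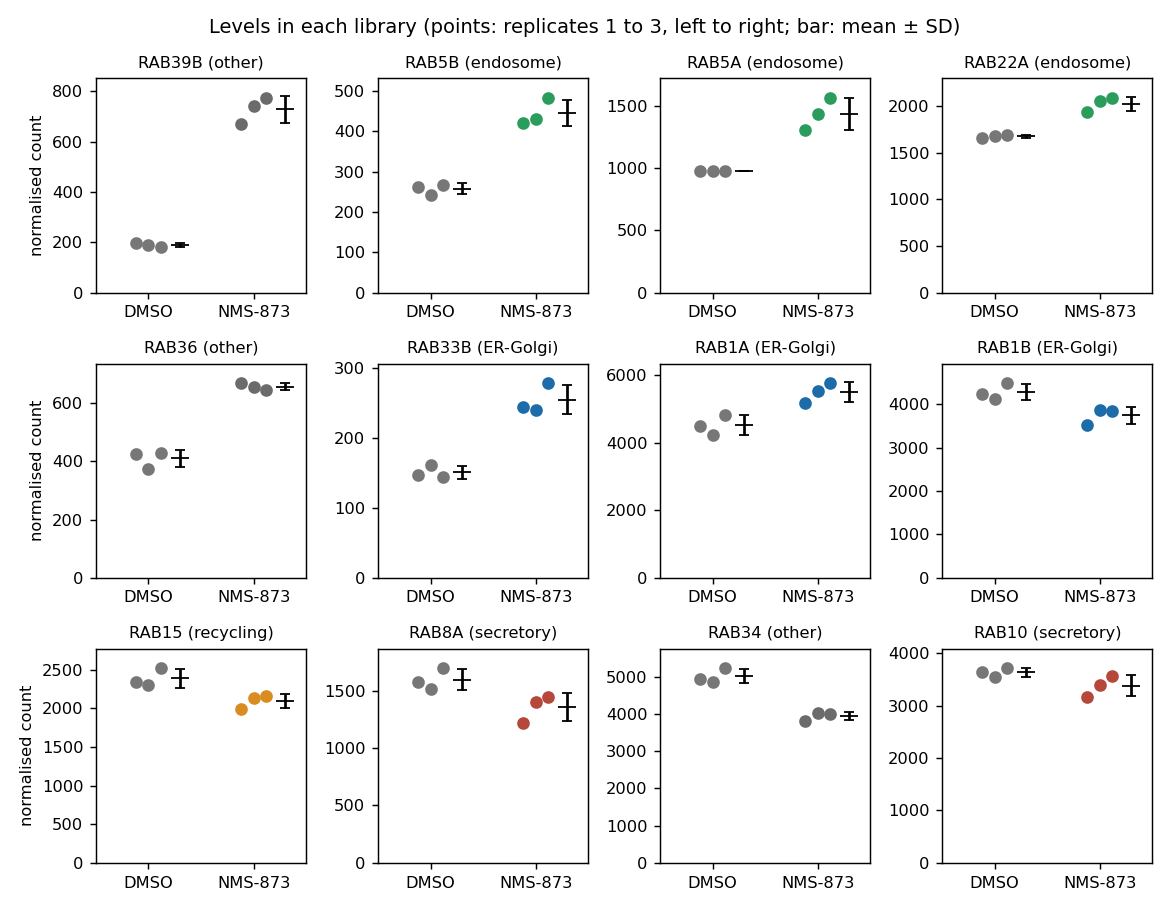
Normalised counts of 12 RAB GTPases in each library, with axes from 0; grey points in the left column of each panel are DMSO replicates 1 to 3, the points on the right, coloured by compartment, are NMS-873 replicates 1 to 3, and the bar gives the mean ± SD. RAB39B, RAB5A, RAB5B, RAB36 and RAB33B have treated points far above the controls, and in RAB10 the 2 groups overlap.

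Where a family has several genes above the count minimum, the share of each paralogue in the family's summed FPKM was computed, after the levels had been seen. RAB1A took 41.5% ± 0.625 of RAB1 under DMSO and 49.7% ± 0.634 under NMS-873. Per gene length the 2 genes thus came close to equal, while the family's sum was 167 ± 8.78 and 170.0 ± 8.90 FPKM. In RAB5 the share of RAB5A was 40.3% ± 1.06 and 47.9% ± 1.34, that of RAB5B 8.69% ± 0.265 and 12.2% ± 0.450, and that of RAB5C 51.0% ± 0.876 and 39.96% ± 1.59. Per gene length the order of RAB5A and RAB5C was thus exchanged. The sum of RAB5 was 29.4 ± 0.724 FPKM under DMSO and 36.3 ± 2.32 under NMS-873. The near equality in RAB1 and the exchange in RAB5 rest on the annotated gene lengths. In normalised counts RAB1A and RAB1B were at 4518 and 4291 under DMSO and at 5489 and 3750 under NMS-873. By the same measure RAB5A, at 979 and 1439, was above RAB5C, at 896 and 865, in both groups. RAB2B took 24.2% ± 0.558 and 28.4% ± 1.99 of RAB2. RAB6A took 89.2% ± 0.746 and 90.5% ± 0.330 of RAB6. In these 4 families the shares of the groups did not overlap for any paralogue. Where a family has 2 genes, their shares mirror each other and are not separate results. An exact two-sided permutation test of 3 against 3 cannot go below p = 0.1. RAB11A took 56.5% ± 0.543 and 56.3% ± 1.24 of RAB11, and RAB8A 53.2% ± 1.40 and 51.8% ± 0.974 of RAB8, and RAB40C 77.8% ± 0.563 and 79.8% ± 1.99 of RAB40, with overlapping groups in all 3.

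**Figure D4:**
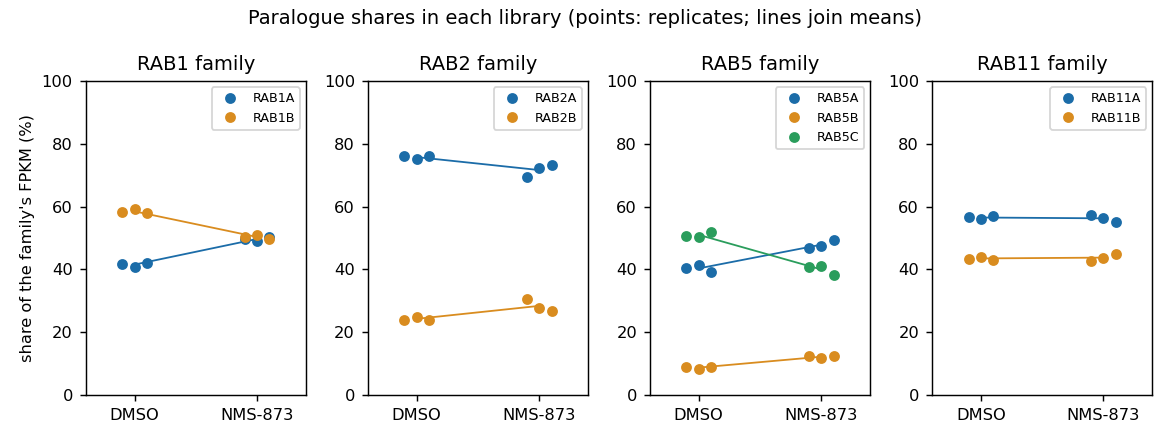
Share of each paralogue in the summed FPKM of the RAB1, RAB2, RAB5 and RAB11 families, in percent; points are libraries and lines join the group means. Per gene length, RAB1A and RAB1B meet near equal shares under NMS-873, RAB5A passes RAB5C, and the RAB11 lines are level.

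Of the 7 recycling RABs, 0 rose and 4 fell, beside 17.3% higher and 35.4% lower in the background. Their median log2 fold change was -0.12, close to the -0.10 of the median gene tested. RAB15, which serves recycling of receptors from early endosomes, had 2342, 2295 and 2519 normalised counts under DMSO and 1988, 2139 and 2161 under NMS-873. The highest treated library was below the lowest control, a 1.14-fold fall (log2 fold change -0.19, SE 0.0548, limma adjusted p = 0.00255). RAB4A, of the fast recycling route, had 431, 434 and 381 normalised counts under DMSO and 347, 367 and 368 under NMS-873, a 1.15-fold fall (log2 fold change -0.20, limma adjusted p = 0.0231). RAB11A, the central RAB of the recycling endosome and the member with the highest count in this group, had 3378, 3283 and 3608 normalised counts under DMSO and 2992, 3196 and 3227 under NMS-873. The groups were separate by a small margin (log2 fold change -0.12, limma adjusted p = 0.0451). RAB14, of the route between the trans-Golgi and endosomes, was at -0.13 (log2; limma adjusted p = 0.0461). RAB11B, RAB35 and RAB12 did not pass, at -0.11, -0.03 and 0.03 (log2). The number of recycling RABs called lower was 1, RAB15, with factors from the genes, 0 without the variance trend, and 1 when either DMSO replicate 1 or NMS-873 replicate 1 was left out. With factors from the genes RAB12 was called higher, at 0.13 (log2).

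Of the 6 secretory RABs, 3 fell and 0 rose, beside 35.4% lower and 17.3% higher in the background, and the median log2 fold change was -0.13, close to the -0.10 of all genes tested. RAB8A, which directs vesicles to the plasma membrane and the cilium, had 1573, 1514 and 1695 normalised counts under DMSO and 1216, 1399.7 and 1446 under NMS-873. All treated libraries were below all controls, a 1.18-fold fall (log2 fold change -0.24, SE 0.0576, limma adjusted p = 2.16e-04). RAB27A, which docks secretory granules and exosome-bearing endosomes, had 432, 426 and 482 normalised counts under DMSO and 328, 396 and 427 under NMS-873 (log2 fold change -0.23, limma adjusted p = 0.00972). RAB8B had 1451, 1356 and 1402 normalised counts under DMSO and 1156, 1247 and 1382 under NMS-873 (log2 fold change -0.16, limma adjusted p = 0.0187). For RAB27A and RAB8B the highest treated library lay within the controls' range, and both calls were lost with factors from the genes. RAB10, which delivers vesicles carrying glucose transporters among others and has the highest count of the group, had 3649, 3537 and 3713 normalised counts under DMSO and 3169, 3392 and 3569 under NMS-873. It did not pass, at -0.11 (log2; limma adjusted p = 0.0897), nor did RAB13 at -0.11 and RAB3B at -0.01. The number of secretory RABs called lower was 1 with factors from the genes, 0 without the variance trend and 1 without NMS-873 replicate 1.

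Of the 9 remaining RABs, 4 rose and 3 fell, beside 17.3% higher and 35.4% lower in the background. RAB39B (ENSG00000155961.4; chromosome X, 154487526 to 154493874, minus strand), a RAB of the Golgi and endosomes mutated in an X-linked intellectual disability, had 195, 189 and 183 normalised counts under DMSO and 669.6, 743 and 774 under NMS-873. The 2 groups lay far apart (log2 fold change 1.94, SE 0.0778, limma adjusted p = 7.08e-68), and the gene ranked 61 of 14889 by its log2 fold change. In the authors' deposited table its log2 fold change is 1.95. A complex of C9orf72, SMCR8 and WDR41 has been reported as an exchange factor for RAB39B, and a link to its rise was not tested. The genes of the complex were named after their values were seen. C9orf72 rose from 513 ± 20.0 to 630.5 ± 25 normalised counts, and SMCR8 fell from 573 ± 7.41 to 499 ± 29.1. WDR41 was at 1067 ± 32.0 and 1144 ± 13.8 and did not pass. The SMCR8 fall was lost with factors from the genes and when DMSO replicate 1 or NMS-873 replicate 3 was left out.

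RAB36 and RAB34, relatives that bind RILP and position lysosomes, differed in direction. RAB36 (ENSG00000100228.8; chromosome 22, 23487513 to 23506537) had 427, 376 and 429.7 normalised counts under DMSO and 669.6, 655 and 645 under NMS-873. It rose 1.60-fold with no overlap (log2 fold change 0.68, SE 0.0704, limma adjusted p = 1.42e-17). RAB34 (ENSG00000109113.13; chromosome 17, 27041299 to 27045447) had 4956, 4868 and 5234 normalised counts under DMSO and 3824, 4028 and 3994 under NMS-873. It fell 1.27-fold (log2 fold change -0.35, SE 0.0538, limma adjusted p = 6.23e-09), the only fall among the members that held in all 18 alternatives run. RAB32 and RAB38, of lysosome-related organelles such as melanosomes, also parted: RAB32 rose 1.14-fold, from 972 ± 72 to 1109 ± 17.3 normalised counts, and RAB38 fell 1.27-fold, from 131 ± 15.8 to 104 ± 8.49. The RAB32 rise was lost without the variance trend and when DMSO replicate 1 was left out, and the RAB38 fall held in 11 of 18 alternatives, and was lost for example with DMSO replicate 1 or 3 or NMS-873 replicate 2 left out and with factors from the genes. RAB40C, which joins a CUL5 ubiquitin ligase, rose 1.22-fold, from 414 ± 17.3 to 504 ± 4.31 normalised counts, and RAB40B was at 0.11 (log2). RAB23, a negative regulator of Hedgehog signalling, fell from 736 ± 20.4 to 660.1 ± 61.3 normalised counts with overlapping groups (limma adjusted p = 0.0344). That call held in 9 of 18 alternatives and was lost, among others, with factors from the genes and when DMSO replicate 1 or NMS-873 replicate 1 or 2 was left out. RAB28 was at 0.08 (log2).

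Groups that did not overlap were seen in 22 of the 39 members, beside 58.0% of the 12079 background genes. Of the 12 rises all were free of overlap, and of the 12 falls 9 were. Calls and overlap come from the same values, so the overlap is no separate support for a call. In the authors' deposited table, 16 of the 39 have an adjusted p under 0.05, 11 higher and 5 lower, and each of these was called here with the same sign. The rises in RAB5A, RAB5B, RAB22A, RAB9A, RAB1A, RAB2B, RAB6A, RAB33B, RAB36, RAB39B and RAB40C, 11 of the 12, passed in all 18 alternatives.

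**Figure D5:**
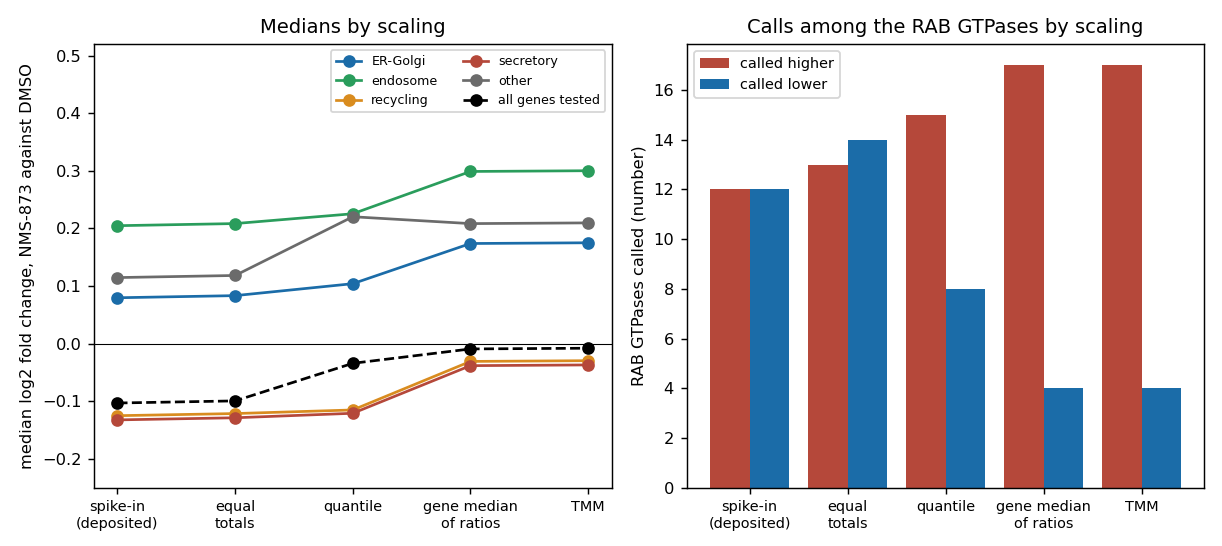
Left, median log2 fold change of each compartment and of all genes tested under 5 scalings; right, the number of RAB GTPases called higher and lower under each. Factors per library move all medians by nearly the same amount, so the order of the lines is fixed in 4 of the 5 scalings. Under quantile normalisation, where it is not fixed, the order is the same. The members' split goes from 12 and 12 on the spike-in scale to 17 and 4 with factors from the genes.

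The rule's minimum fell just above 2 endosomal RABs. RAB9B, at a mean of 49.5, had 28.8, 34.2 and 41.7 normalised counts under DMSO and 66.2, 59.7 and 66.2 under NMS-873, and RAB20, at 46.8, had 63.8, 54.2 and 68.5 under DMSO and 31.1, 34.3 and 29.0 under NMS-873. RAB9B lay higher and RAB20 lower under NMS-873 in every library, so the endosomal count of 4 rises and 0 falls covers only members over the minimum. The members just inside were RAB38 and RAB40B, with means of 117 and 182. Of the 22 rows under the minimum, 10 were tested, and 2 had no read. The secretory forms RAB3A, RAB3C, RAB3D and RAB33A were among the lowest, each at a mean under 10. RAB25 of the recycling group and RAB41 of the ER and Golgi were also under 10. Other secretory forms were higher: RAB26 and RAB27B had means of 37.5 and 25.6, and the member RAB3B had 1641.

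Some members share their locus with another gene. Whether counting used strand was not given in the sources used here, so reads of such partners may not be separate. On the opposite strand, RAB2B overlaps TOX4 (1926 normalised counts on average), RAB6B overlaps SRPRB (1854), RAB23 overlaps BAG2 (1596), RAB11A overlaps DENND4A (1274), RAB14 overlaps GSN (1140.4), RAB15 overlaps FNTB (572) and RAB1A overlaps CEP68 (374). TOX4, at 0.13 (log2; limma adjusted p = 0.0484) and 495% of the RAB2B count, was higher like RAB2B, and SRPRB, at 658% of the RAB6B count, was at 0.42 (log2). DENND4A, at 0.45 (log2), and CEP68, at -0.43, went the other way from RAB11A and RAB1A, while FNTB, at -0.33, GSN, at -0.29, and BAG2, at -0.37, were lower like RAB15, RAB14 and RAB23. RAB27A overlaps RP11-139H15.1 on its own strand, which was at 0.53 (log2). PIGB (121 normalised counts on average), opposite RAB27A, was at -0.16 (log2; limma adjusted p = 0.278). RP11-83A24.2 (33.3, or 16.4% of the RAB33B count), opposite RAB33B, was at 0.31 (log2; limma adjusted p = 0.228). RAB39B, RAB5A, RAB5B, RAB36 and RAB34 overlap no gene with a mean of 10 or more. RAB6C, a retrocopy of RAB6A with nearly the same sequence, was at 6.31. How many reads match both genes was not determined, so the uncertainty in their split is not known.

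The genes that operate the RAB cycle were taken from 4 lists. Among the 14889 genes tested, 47.9% passed, 14.9% higher and 33.0% lower. Of 11 genes of prenylation and membrane delivery, 2 rose and 3 fell. RABGGTB, the catalytic subunit of the RAB geranylgeranyl transferase, rose 1.35-fold, from 2413 ± 4.68 to 3258 ± 44.8 normalised counts, and CHM, an escort protein that presents RABs to it, 1.12-fold with overlapping groups. The CHM call held in 11 of 18 alternatives and was lost when DMSO replicate 1 or 2 or NMS-873 replicate 2 or 3 was left out. Its partner subunit RABGGTA was at -0.04 (log2), and GDI2, a carrier of GDP-bound RABs, was at -0.09 (log2), both named after their values were seen. Those that fell were FNTB and FNTA, subunits of the farnesyltransferase, which serves other proteins, and PRAF2, an ER membrane protein, at -0.33, -0.16 and -0.18 (log2), and the PRAF2 call held in 9 of 18 alternatives, lost when any library but NMS-873 replicate 2 was left out. The FNTA call held in 12 of 18 and was lost when DMSO replicate 3 or NMS-873 replicate 1 was left out.

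Of 52 tested exchange factors and their subunits, 12 rose and 14 fell, and their median log2 fold change was -0.01. RIN1 and RIN2, which activate RAB5, fell 2.39-fold and 1.62-fold: RIN1 went from 819.9 ± 77.3 to 342 ± 15.1 normalised counts and RIN2 from 811 ± 41.8 to 501 ± 26.1. RIN3, of that family and added once its value had been seen, fell 1.22-fold. ST5, a DENN domain protein, fell 1.38-fold. DENND2C, of the same domain family, rose 1.70-fold, KIAA1432 (RIC1), part of the RAB6 exchange factor, 1.37-fold, and MON1B, part of the RAB7 exchange factor, 1.36-fold.

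Of 39 GTPase-activating proteins and their relatives, 10 rose and 10 fell, and their median log2 fold change was -0.06, or -0.019 without DMSO replicate 3 and -0.029 without NMS-873 replicate 1. TBC1D10A, which acts on RAB27A and RAB35, rose 1.87-fold, from 186 ± 27.9 to 348 ± 13.6 normalised counts. TBC1D22B rose 1.28-fold and TBC1D23, a golgin-bound protein of endosome to Golgi transport, 1.20-fold. TBC1D2, which acts on RAB7, fell 1.63-fold, from 629.9 ± 53.9 to 386 ± 15 normalised counts, TBC1D13 fell 1.32-fold and TBC1D14 1.20-fold. Of 59 tested effectors, 15 rose and 13 fell, with a median of 0.04. Without DMSO replicate 2 the split was 10 and 15 (median 0.0080), and without NMS-873 replicate 3 it was 11 and 14 (median -0.0045). GORASP2 and GOLGA2, Golgi matrix proteins that bind RAB2 and RAB1, rose 1.43-fold and 1.44-fold, GORASP2 from 2563 ± 117 to 3673 ± 135 normalised counts. INPP5B, a phosphoinositide phosphatase that binds RAB5, rose 1.51-fold. RAB11FIP3, which binds RAB11, fell 1.41-fold, from 780.1 ± 16.0 to 551 ± 34.0 normalised counts, MICALL2, which binds RAB13, 1.33-fold, and EHBP1L1, which binds RAB8, 1.31-fold. With factors from the genes the splits of the 4 lists, in the order given, were 5 and 1, 23 and 9, 13 and 5, and 29 and 10, and all genes tested turned as well, to 24.2% higher and 22.0% lower.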

How the data were processed

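The authors deposited 1 table. It holds FPKM per gene and library, the mean normalised count (a signal in scaled reads), and, from the authors' own comparison, log2 fold changes with adjusted p-values. The submitters' processing notes name hg19, featureCounts 1.5.1 and DESeq2 1.16.1; an aligner was not given in the sources used here. Each gene's FPKM values were multiplied by its mean normalised count over its mean FPKM; times a size factor they gave whole reads within 1.8e-09, and the factors equal the median of ratios of the spike-in rows. Genes with a mean of at least 10 (14889) entered limma 3.58.1 (R 4.3.3), fitted to log2(normalised count + 1), which understates the changes of low genes, with an intensity trend, two-sided, at an adjusted p under 0.05; voom was run as an alternative. The design had assumed deposited normalised counts; they were rebuilt from FPKM. The prior had 251 degrees of freedom, so spread comes mostly from genes of similar level. On simulated counts 98.5% of 67 genes changed 1.5-fold among 14889 were recovered, and 8 of 14689 unchanged genes were called. The simulation gave all genes the same dispersion, 0.000635, taken from the DMSO libraries. Its changes were balanced up and down among genes with a mean of at least 50, and no library stood apart. In the data NMS-873 replicate 1 stood apart and more genes fell than rose, so these rates may not hold there. Without molecular identifiers, reads are not independent molecules, and counting error is the least error to allow for. Members and lists were chosen with earlier results of these data known. Values in every library are given for called members at 0.5 (log2) or more, the 3 lowest adjusted p and the highest mean in each compartment, with RAB1B, RAB9B and RAB20 added after their values were seen; in each of the 4 lists the 3 lowest adjusted p in each direction are named.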

Additional observations from a re-analysis of the deposited data

How the results depend on the processing

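The alternatives numbered 18. With median-of-ratios and TMM factors over genes, all genes gave 3608 and 3626 higher and 3273 and 3250 lower (medians -0.0092 and -0.0079); RAB GTPases gave 4 lower in both (medians 0.10 and 0.10). Counts were the same with both kinds of factor for ER-Golgi (1 lower), recycling (1 higher, 1 lower), secretory (1 lower), other RABs (1 lower), membrane cycle (5 higher, 1 lower), exchange factors (23 and 9), GTPase-activating proteins (5 lower) and effectors (29 higher). Their medians were 0.17 for ER-Golgi with both, 0.30 for endosome, -0.031 and -0.030 for recycling, -0.038 and -0.037 for secretory, 0.21 for other RABs, 0.054 and 0.055 for membrane cycle, 0.087 and 0.088 for exchange factors, 0.030 and 0.031 for GTPase-activating proteins and 0.13 for effectors. Quantile normalisation gave 1 lower in ER-Golgi, 1 lower in other RABs (median 0.22), 4 higher in membrane cycle, 20 higher in exchange factors (median 0.048), and medians of 0.010 for GTPase-activating proteins and -0.034 for all genes. With equal totals 5 secretory RABs were lower. Without the variance trend 1 RAB GTPase was lower, with 0 in ER-Golgi, 0 in recycling, 0 in secretory and 1 in other RABs, 1 higher in membrane cycle and 6 GTPase-activating proteins lower. On log2(FPKM + 0.1) 6 RAB GTPases were lower, 1 in ER-Golgi, 2 in recycling and 1 in secretory, and 1 membrane cycle gene was higher. With no count minimum 2 recycling RABs were lower and 1 membrane cycle gene higher.

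Leaving out each library in turn, RAB GTPases called lower ranged from 5 to 14, in ER-Golgi from 1 to 2 (median 0.027 to 0.12), in recycling from 1 to 5, in secretory from 1 to 4 and in other RABs from 1 to 3 (median 0.095 to 0.18); membrane cycle genes ranged from 1 to 3 higher and from 1 to 3 lower (median -0.10 to 0.015), and the exchange factor median from -0.058 to 0.023. Members that did not pass changed sign: with median-of-ratios and TMM factors RAB31 (0.046 and 0.047), RAB5C (0.045 and 0.046), RAB35 (0.067 and 0.068) and RAB3B (0.088 and 0.090), RAB3B also after quantile normalisation (0.0049). With 1 library left out the log2 fold change spanned 0 for RAB12 (-0.029 to 0.080), RAB35 (-0.090 to 0.039), RAB6B (-0.012 to 0.029) and RAB3B (-0.062 to 0.078). The cause was not tested. The replicate block gave 13 RAB GTPases higher and 13 lower. Deviations of same-numbered libraries correlated at 0.0394, -0.0253 and 0.0425, and not every library correlated best with its own number. With 3 libraries per group these correlations cannot decide whether a number marks a shared culture, which the labels do not state.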
